A study of Bos taurus with 147 samples.

Results

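The 7 cytochrome c oxidase genes COX4I1, COX5B, COX6A2, COX6C, COX7B, COX7C and COX17 were followed in cattle longissimus muscle. They were chosen as the elements of a muscle and fat cDNA microarray that carry 1 of these 7 gene symbols and no other, which gave 34 of the 21168 elements of the array and 7 of its 976 named genes. The 34 elements are 17 different cDNA probes, each printed at 2 places: 5 probes of COX4I1, 3 each of COX6C and COX7C, 2 each of COX7B and COX17, and 1 each of COX5B and COX6A2. All 7 genes passed the filter on missing values in both experiments. Not every gene fits the name of the group, since COX17 encodes a copper chaperone that helps to build the enzyme and is not a subunit of the finished complex.

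Cytochrome c oxidase, complex IV of the mitochondrial respiratory chain, passes electrons from cytochrome c to oxygen and pumps protons across the inner membrane. Its catalytic core is encoded by mitochondrial DNA, and nuclear genes supply the smaller subunits around it, the assembly factors and the muscle-specific isoforms. In skeletal muscle its amount is a usual marker of oxidative capacity, which is highest in slow fibres and changes as fibres mature around birth.

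The arrays compared crossbred muscle from Piedmontese x Hereford (Piedmontese-sired) and Wagyu x Hereford (Wagyu-sired) cattle. In the fetal experiment each sire breed was sampled at d60, d135 and d195 of gestation and at birth, which made 8 groups of 3 animals, joined in a closed loop by 25 arrays. In the later experiment the same crosses were compared at 3 times that the labels name T1, T2 and T3 without giving ages, on 20 arrays, and 1 further array carried the same Piedmontese-sired T1 RNA in both dyes. All dams of the fetal experiment were Hereford. The Piedmontese bulls were homozygous for the GDF8 (myostatin) missense mutation and the Wagyu bulls did not carry it, so each Piedmontese-sired calf inherited 1 mutant allele. At d60 the tissue was cut from the area of the future longissimus, where skin was hard to remove, and the 3 fetuses of each breed had the same bull, so that bull and breed cannot be told apart at that stage. The Wagyu-sired fetuses at d135 and the Piedmontese-sired fetuses at d195, 2 of them twins, also had 1 bull each. The 6 newborn calves were all female, whereas males were recorded at each fetal stage, and all fetal RNA was linearly amplified before labelling.

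Each value is a log2 ratio of Cy5 over Cy3, centred on the median of its array, so it gives a difference between the 2 samples on an array and no level. The 25 fetal arrays had 19404 to 20771 usable elements each and the 20 later arrays 20794 to 20946. Arrays of the same fetal link correlated at r = -0.18 to 0.73 over all features (27 pairs, median 0.49), whereas the breed arrays at T1 to T3 with swapped dyes correlated at -0.58 to 0.59 (12 pairs, median 0.005). On the array with the same RNA in both dyes the 7 genes stood at -0.18 (COX7C) to 0.38 (COX4I1), within the -0.57 to 0.50 that held the elements between the 5th and the 95th percentile. Stage and breed differences were tested with limma over all features at a Benjamini-Hochberg adjusted p under 0.05. Labels do not tie arrays to animals and a group's RNA recurs on several arrays, so the p-values measure only the spread between arrays, which may be technical in part. In tissue RNA, fewer cells of a type and less RNA per cell cannot be told apart.

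Between d60 and d135 all 7 genes had positive fitted ratios and 5 of them rose. In the mean of both breeds COX6A2, the heart and skeletal muscle isoform of subunit 6A, rose the most, by 1.13 on the log2 scale (SE 0.22, 2.18-fold, limma adjusted p = 0.000542), followed by the copper chaperone COX17 at 0.78 (SE 0.15, adjusted p = 0.000483). COX5B, a matrix-side subunit that binds zinc, rose by 0.56 (SE 0.16, adjusted p = 0.0106). Smaller rises were found for COX7B, a small subunit with a single membrane span, at 0.38 (SE 0.14, adjusted p = 0.0388; first probe 0.60, adjusted p = 0.0194, second probe 0.17, adjusted p = 0.409), and for COX4I1, the common isoform of the largest nuclear subunit, at 0.36 (SE 0.13, adjusted p = 0.0448). COX7C at 0.45 and COX6C at 0.34, both single-span subunits as well, missed the threshold (adjusted p = 0.103 and 0.117). Over all 16659 features 14.0% rose in this step, and the median of all features was -0.03 against 0.45 for the 7 genes.

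The single arrays of this step were mostly above 0. COX6A2 had d135 over d60 ratios of 1.49, 1.14 and 0.73 on the 3 Piedmontese-sired arrays and 0.67, 1.60 and 1.13 on the 3 Wagyu-sired arrays. COX17 had 0.67, 0.99 and 0.66 on the Piedmontese-sired arrays and 0.80, 0.92 and 0.61 on the Wagyu-sired arrays. Every array put both genes above 0, and the breeds overlapped. On these arrays d135 was in Cy3 for Piedmontese-sired and in Cy5 for Wagyu-sired muscle, so the breeds also differed in dye. COX6C had the 1 negative ratio of this step, at -0.17 on Wagyu-sired array 1, against 0.29 and 0.67 on the other Wagyu-sired arrays and 0.40 to 0.45 on the Piedmontese-sired arrays. The count of 5 genes fell to 2 without Piedmontese-sired array 3 or without Wagyu-sired array 3 of this link, and to 3 without Piedmontese-sired array 2.

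Between d135 and d195 the genes parted: COX4I1, COX7B and COX17 rose again, and the other 4 did not pass the threshold. The rises in the mean of both breeds were 0.48 for COX4I1 (SE 0.13, limma adjusted p = 0.0127), 0.47 for COX7B (SE 0.13, adjusted p = 0.0164) and 0.45 for COX17 (SE 0.14, adjusted p = 0.0312), where 10.6% of all features rose. The call of COX7B came from its second probe, at 0.67 (adjusted p = 0.00197) against 0.27 (adjusted p = 0.333) for the first. The other fitted ratios were 0.37 for COX6A2, 0.09 for COX7C, 0.08 for COX5B and -0.08 for COX6C (adjusted p = 0.248 to 0.796). COX17 was above 0 on all 7 arrays, with 0.46, 0.50 and 0.35 on the Piedmontese-sired arrays and 0.56, 0.44, 0.25 and 0.59 on the Wagyu-sired arrays. COX4I1 had 0.51, 0.83 and 0.00 on the Piedmontese-sired arrays and 0.43, 0.58, 0.53 and 0.48 on the Wagyu-sired arrays. COX5B had -0.67, -0.23 and 0.12 on the Piedmontese-sired arrays and 0.34, 0.43, 0.55 and 0.34 on the Wagyu-sired arrays. The later stage was in Cy3 on every Piedmontese-sired array and in Cy5 on every Wagyu-sired array, so the single arrays also differ in dye. With the dye fitted, COX5B stood at -0.13 in Piedmontese-sired and at 0.28 in Wagyu-sired muscle. The difference between breeds was not tested for this step. The count of 3 genes fell to 0 without Piedmontese-sired array 2, and to 0 with the ratios as deposited, uncentred, where the median of all features moved to -0.15.

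**Figure D1:**
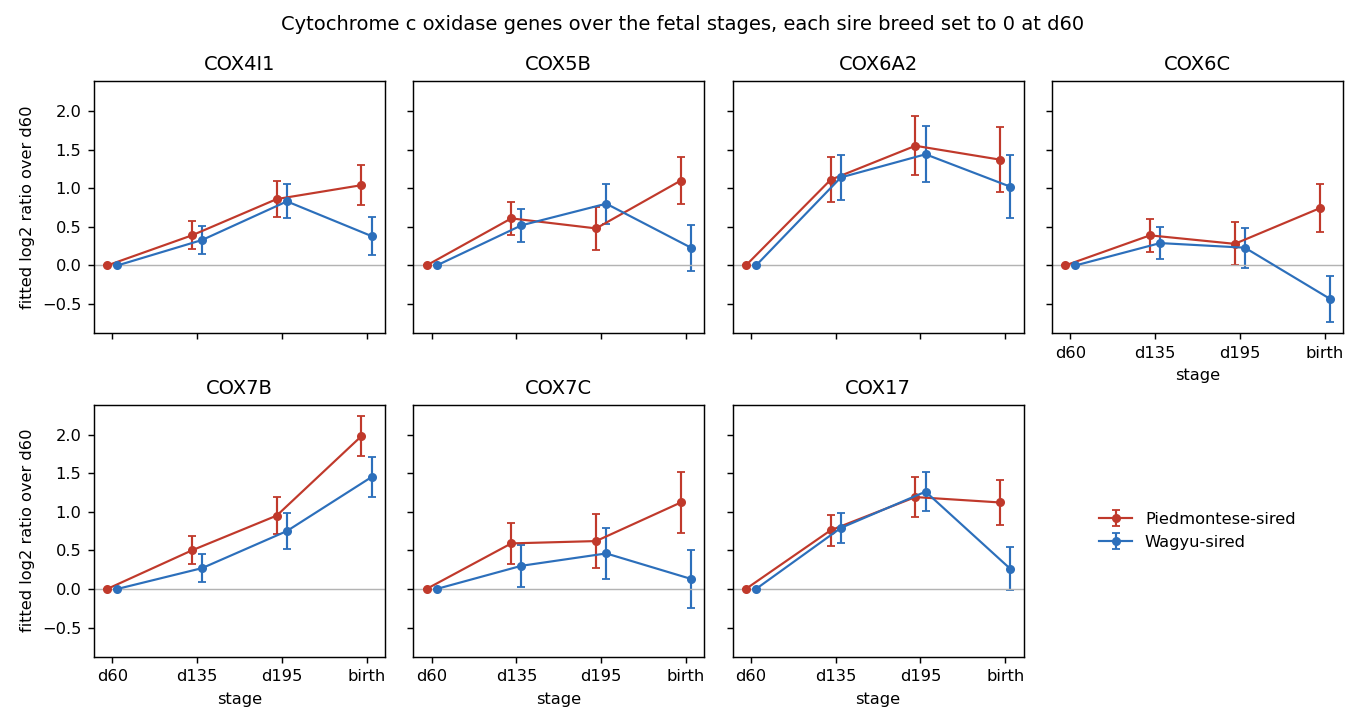
Fitted log2 ratio over d60 (vertical axis) at d60, d135, d195 and birth (horizontal axis) for each gene in Piedmontese-sired (red) and Wagyu-sired (blue) muscle. Each breed is set to 0 at its own d60 and bars are 1 standard error of the fit; up to d195 the lines run close together, and at birth the Piedmontese-sired median of the 7 genes is 1.12 against 0.26 in Wagyu-sired muscle.

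Set against their own d60, the 7 genes had median fitted ratios of 0.59 at d135, 0.86 at d195 and 1.12 at birth in Piedmontese-sired muscle, and of 0.33, 0.80 and 0.26 at the same stages in Wagyu-sired muscle. At d195 the ranges over genes were alike, 0.28 to 1.55 in Piedmontese-sired muscle and 0.23 to 1.44 in Wagyu-sired muscle, with COX6A2 at the top and COX6C at the bottom in both breeds. At birth the range was 0.74 to 1.98 in Piedmontese-sired muscle and -0.43 to 1.45 in Wagyu-sired muscle, with COX7B at the top and COX6C at the bottom in both. In the plot of fitted ratios by stage the Wagyu-sired value at birth lies under that at d195 for every gene but COX7B, for COX17 at 0.26 against 1.26.

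The last step, from d195 to birth, was first read within each breed; the test of the difference between the breeds, given after the arrays, passed for none of the 7 genes. In Piedmontese-sired muscle 2 genes rose and none fell. COX7B rose by 1.03 (SE 0.18, 2.04-fold, limma adjusted p = 0.000145) and COX5B by 0.62 (SE 0.21, 1.54-fold, adjusted p = 0.0243), where 20.7% of all features rose. In Wagyu-sired muscle 4 genes fell and 1 rose, where 22.9% of all features fell and 21.7% rose. COX17 fell by 1.00 (SE 0.20, 0.5-fold, adjusted p = 0.000324), COX6C by 0.66 (SE 0.21, adjusted p = 0.0146), COX5B by 0.57 (SE 0.21, adjusted p = 0.0344) and COX4I1 by 0.45 (SE 0.18, adjusted p = 0.0474). COX7B rose by 0.70 (SE 0.18, adjusted p = 0.00349), a rise that came from 1 of its 2 probes, as described further on.

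The arrays behind these fits were as follows. COX17 had birth over d195 ratios of -0.36, -0.08 and 0.24 on the 3 Piedmontese-sired arrays and of -1.27, -1.31 and -0.45 on the 3 Wagyu-sired arrays. COX6C had 0.24, 0.39 and 0.85 on the Piedmontese-sired arrays and -0.81, -1.09 and -0.17 on the Wagyu-sired arrays. COX4I1 had 0.37, 0.01 and 0.14 on the Piedmontese-sired arrays and -0.54, -0.66 and -0.10 on the Wagyu-sired arrays. Birth was in Cy3 on every Piedmontese-sired array of this step and in Cy5 on every Wagyu-sired array. These single-array ratios therefore also differ between the breeds in dye. The fits hold a dye term, but no fetal link had its dyes swapped. That term therefore cannot be told apart from a mismatch between the links around the loop. COX5B had 0.67, 0.32 and 0.47 on the Piedmontese-sired arrays and -0.48, -0.93 and 0.11 on the Wagyu-sired arrays. COX7C had 0.01, 0.39 and 1.02 on the Piedmontese-sired arrays and -0.64, -0.76 and 0.51 on the Wagyu-sired arrays, and the muscle isoform COX6A2 had -0.02, -0.35 and -0.16 on the Piedmontese-sired arrays and -0.91, -1.04 and 0.67 on the Wagyu-sired arrays. Wagyu-sired array 3 stood above the other 2 Wagyu-sired arrays for all 7 genes: the median over the genes was 0.11 on array 3, against -0.64 on array 1 and -0.93 on array 2.

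**Figure D2:**
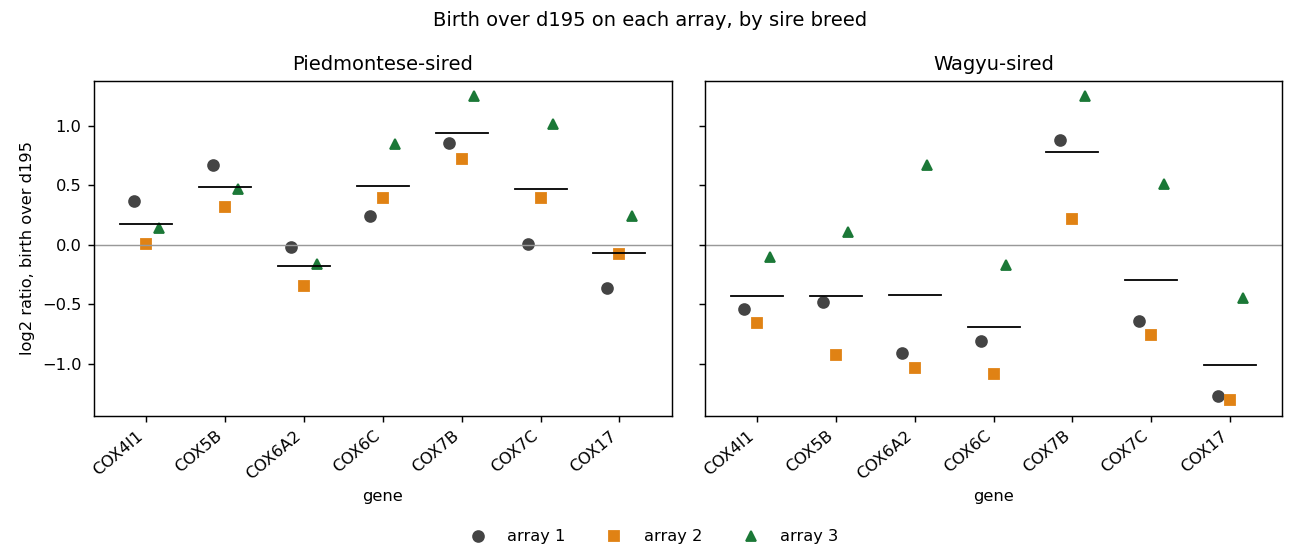
Log2 ratio of birth over d195 (vertical axis) for each gene (horizontal axis) on the 3 arrays of Piedmontese-sired muscle (left) and the 3 arrays of Wagyu-sired muscle (right). Symbols are arrays and lines their means. Birth was in Cy3 on the left and in Cy5 on the right, and Wagyu-sired array 3 (median 0.11) lies above arrays 1 and 2 (medians -0.64 and -0.93).

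The difference between the breeds in this last step was positive for all 7 genes, from 0.23 for COX6A2 to 1.19 for COX5B with a median of 0.82 against 0.01 over all features, but none of the genes passed the test of the difference (limma adjusted p = 0.0956 to 0.773). At an unadjusted p under 0.05, 5 of the 7 genes and 2900 of 16659 features differed, and 0% of features passed after adjustment. Without array 1 of the Piedmontese against Wagyu link at birth 3 genes passed (COX5B, COX6C and COX17, adjusted p = 0.0266 to 0.0365), and without Wagyu-sired array 3 of the d195 link 3 genes passed as well. In the mean of both breeds COX7B rose by 0.86 (SE 0.14, adjusted p = 2.39e-05), where 26.7% of features rose, and COX17 fell by 0.54 (SE 0.15, adjusted p = 0.00456), where 25.8% fell. In Wagyu-sired muscle the count of 5 genes fell to 2 without array 1 or without array 2 of that link. In Piedmontese-sired muscle the count of 2 fell to 1 without array 1 or array 3 of its own link and came to 4 without array 1 of the breed link at birth.

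Over the whole span from d60 to birth, 6 of the 7 genes rose in Piedmontese-sired muscle and 1 in Wagyu-sired muscle. In Piedmontese-sired muscle the rises were 1.98 for COX7B (SE 0.26, 3.93-fold, limma adjusted p = 2.82e-06), 1.37 for COX6A2 (SE 0.42, adjusted p = 0.0112), 1.12 for COX17 (SE 0.29, adjusted p = 0.00295), 1.12 for COX7C (SE 0.39, adjusted p = 0.0237), 1.10 for COX5B (SE 0.31, adjusted p = 0.00587) and 1.04 for COX4I1 (SE 0.26, adjusted p = 0.00227). COX6C, at 0.74 (SE 0.31), missed the threshold (adjusted p = 0.0546). Over all features 22.1% rose in Piedmontese-sired muscle. In Wagyu-sired muscle, where 20.2% of all features rose, COX7B rose by 1.45 (SE 0.26, 2.74-fold, adjusted p = 0.0001). The other 6 fitted ratios were 1.02 for COX6A2 (adjusted p = 0.0511), 0.38 for COX4I1, 0.26 for COX17, 0.23 for COX5B, 0.13 for COX7C and -0.43 for COX6C (adjusted p = 0.236 to 0.805 for these 5). COX6A2 passed as the second gene of Wagyu-sired muscle (1.09 to 1.21, adjusted p = 0.0254 to 0.0429) when any 1 of 8 arrays was left out: array 1 or 2 of the birth and d195 link, array 3 of the d195 and d135 link or array 1 of the d135 and d60 link of Wagyu-sired muscle, array 3 of the d135 and d60 or of the d195 and d135 link of Piedmontese-sired muscle, array 3 of the breed link at d60 or array 2 of the breed link at birth. In the mean of both breeds COX7B (1.72), COX6A2 (1.19), COX4I1 (0.71), COX17 (0.69) and COX5B (0.66) rose, 5 of 7 genes where 22.6% of features rose.

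The whole-span change was larger in Piedmontese-sired than in Wagyu-sired muscle for 3 genes by the test of the difference itself. Its d60 groups include the Piedmontese-sired sample that amplification may have biased, and the part of that sample in these values was not tested. COX6C differed by 1.17 (SE 0.28, limma adjusted p = 0.0152), COX5B by 0.87 (SE 0.28, adjusted p = 0.0434) and COX17 by 0.86 (SE 0.26, adjusted p = 0.0344), where 5.26% of all features had a larger change in Piedmontese-sired muscle. The other 4 differences were positive too, at 0.98 for COX7C, 0.66 for COX4I1, 0.52 for COX7B and 0.35 for COX6A2 (adjusted p = 0.0646, 0.0624, 0.147 and 0.568). This count moved with single arrays: it was 0 without array 2 or array 3 of the breed link at d60 or without array 3 of the breed link at birth, 1 without array 2 of the breed link at birth, 5 without array 1 of the breed link at d60 or without array 3 of the Wagyu-sired birth and d195 link, and 6 without array 1 of the breed link at birth. The count of 5 in the mean of both breeds was 3 without array 3 of either birth and d195 link or without array 2 of either d60 and d135 link. All 7 differences stayed above 0 with the arrays uncentred (0.46 to 1.28) or scaled to a common spread (0.16 to 1.02), and with that scaling 1 gene passed in place of 3 (COX6C, adjusted p = 0.0146). With the array number as a replicate block 1 gene passed as well.

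Piedmontese-sired against Wagyu-sired muscle at a single stage gave no gene past the threshold at any fetal stage. At d60 the fitted ratios of Piedmontese over Wagyu lay between -0.33 (COX6C) and 0.00 (COX7B), where 0.0480% of features passed. At d135, where 0% of features passed, they lay between -0.24 and 0.22, and at d195, where again 0% passed, between -0.33 and 0.19. Unadjusted p-values under 0.05 were found for none of the 7 genes at these 3 stages and for 2022 features at d60, 262 at d135 and 446 at d195 by limma. Breeds met on no array at d135 and d195, so that these ratios run through the loop and have wider errors (SE 0.26 to 0.42 against 0.18 to 0.29 at d60 and birth). With the arrays uncentred all 7 ratios at d135 came out positive, 0.12 to 0.58, as the median of all features moved to 0.37.

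At birth all 7 ratios of Piedmontese over Wagyu were positive, and none passed the threshold. COX5B stood at 0.85 (SE 0.21, 95% interval 0.41 to 1.29, limma adjusted p = 0.0693) and COX6C at 0.84 (SE 0.21, 0.40 to 1.29, adjusted p = 0.0693). COX7C stood at 0.78, COX17 at 0.64, COX4I1 at 0.60, COX7B at 0.52 and COX6A2 at 0.30 (adjusted p = 0.104 to 0.602). The median of the 7 genes was 0.64 against 0.01 over all features, and 0.276% of features passed. At an unadjusted p under 0.05, 6 of the 7 genes and 3344 features differed.

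The 3 arrays at birth that carried both breeds lay far apart. On array 1 the 7 genes had a median of -0.13 with 3 genes above 0, on array 2 a median of 1.47 and on array 3 a median of 0.75, with all 7 genes above 0 on both. COX5B had Piedmontese over Wagyu ratios of 0.18, 1.72 and 1.06, COX6C of 0.19, 1.51 and 0.75, and COX7C of -0.36, 1.60 and 1.17 on arrays 1, 2 and 3. COX17 had -0.13, 1.47 and 0.56, and COX4I1 0.11, 1.00 and 0.73. For each of the 7 genes array 1 was the lowest. Without array 1, 6 genes passed at 0.82 to 1.29 (adjusted p = 0.0122 to 0.0181), with COX6A2 at 0.64 (adjusted p = 0.194), and without Wagyu-sired array 3 of the birth and d195 link 2 genes passed. These 2 arrays held Wagyu-sired newborn RNA in opposite dyes, and their deviations from the link means correlated at r = -0.71. A calf common to both would push r below 0. Whether they carried the same calf was not tested, so the 2 results may not be separate. At d60 the spread was the other way round: array 1 had 6 genes above 0 (median 0.19), and arrays 2 and 3 had medians of -0.37 and -0.34. Piedmontese-sired RNA was in Cy3 on all 3 arrays at d60 and in Cy5 on all 3 at birth. The single-array ratios of the 2 stages therefore also differ in dye.

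**Figure D3:**
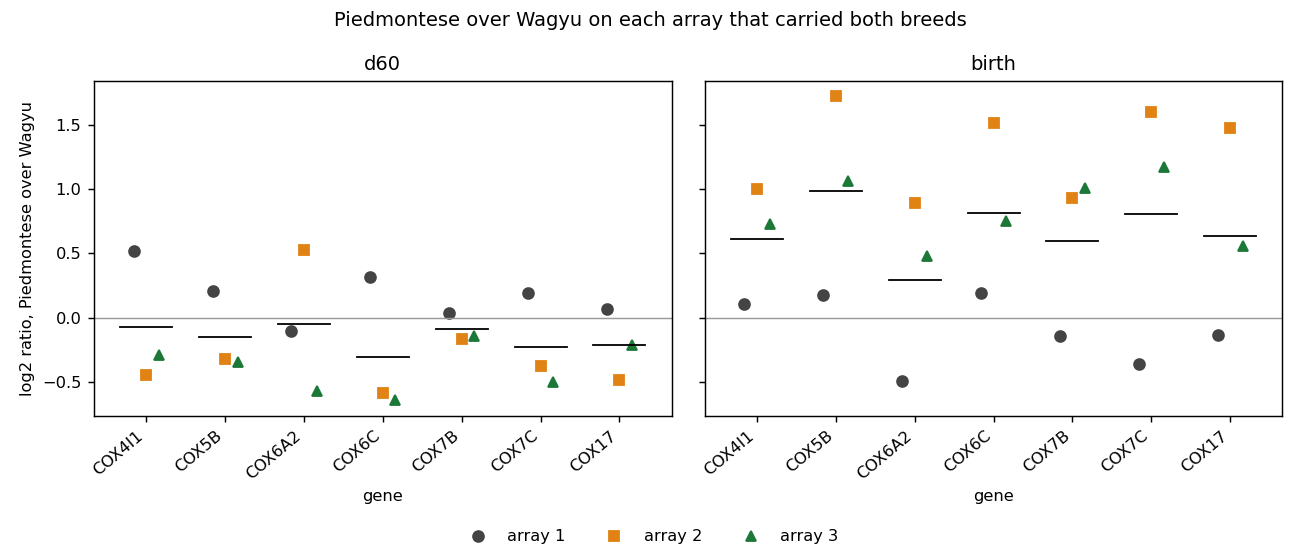
Log2 ratio of Piedmontese over Wagyu (vertical axis) for each gene (horizontal axis) on the 3 arrays that carried both breeds at d60 (left) and at birth (right). Symbols are arrays and lines their means. Piedmontese-sired RNA was in Cy3 on the left and in Cy5 on the right. At birth array 1 (median -0.13) is the lowest for every gene, below array 3 (0.75) and array 2 (1.47).

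Markers of muscle fibres moved apart from the oxidase genes on the arrays at birth. The median ratio of 19 measured fibre genes, of 24 listed, was 0.45, -0.29 and -0.34 on arrays 1, 2 and 3 of Piedmontese over Wagyu, so that the fibre genes were highest where the oxidase genes were lowest. From d195 to birth the same fibre genes stood at 0.99, 0.46 and 0.70 on the Piedmontese-sired arrays and at 1.08, 1.03 and 0.64 on the Wagyu-sired arrays. All 19 rose from d60 to birth in the mean of both breeds, where 22.6% of all features rose and 25.6% fell (median 2.13; TCAP 4.20, MYOZ1 3.42 and the oxygen store myoglobin, MB, 3.32). Of 12 measured fibroblast and matrix genes, 11 fell and 1 rose (median -2.66; the fibronectin gene FN1 -4.67 and the collagen gene COL3A1 -3.88). At birth the matrix genes had median Piedmontese over Wagyu ratios of -0.24, -0.37 and -0.63 on arrays 1, 2 and 3, and COL3A1 was lower in Piedmontese-sired muscle by the fit (-0.94, adjusted p = 0.023). Of 11 adipocyte genes 3 rose and 2 fell from d60 to birth (GPD1 1.92, SCD -1.73), of 5 immune genes 2 rose and 1 fell (CTSS -0.70), and of 3 endothelial and mural genes 1 fell (EGFL7 -2.48). None of the blood and epidermis markers listed was measured. Over this span the change was larger in Piedmontese-sired muscle for 1 of the 19 fibre genes, TNNC1, the slow-fibre troponin C (0.77, SE 0.24, adjusted p = 0.0399), and smaller for 1, the thin-filament gene NEB (-1.34, adjusted p = 0.00276). Over all features 5.26% had a larger and 7.94% a smaller change, so these counts lay near the shares of all features. The part of changing tissue makeup in the oxidase results was not tested.

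The 2 probes of COX7B did not behave alike. Over the 25 fetal arrays the first probe correlated at r = 0.87 with the mean of the other 6 genes and the second at r = 0.09, although the 2 printed places of each probe followed each other closely (r = 0.97 to 0.98). From d195 to birth in Wagyu-sired muscle the first probe had -0.24, -0.83 and 0.43 on arrays 1, 2 and 3, and the second 2.00, 1.28 and 2.08. The fitted ratios were -0.08 for the first probe (SE 0.25, limma adjusted p = 0.811) and 1.48 for the second (SE 0.19, adjusted p = 2.86e-06). In Piedmontese-sired muscle the probes lay closer, at 0.92 and 1.13, and both rose (adjusted p = 0.00587 and 8.91e-05). From d60 to birth in Wagyu-sired muscle the first probe stood at 0.76 (adjusted p = 0.0923) and the second at 2.15 (adjusted p = 2.17e-06). Piedmontese over Wagyu at birth came to 0.90 on the first probe and 0.14 on the second (adjusted p = 0.0856 and 0.736), and the whole-span change was larger in Piedmontese-sired muscle on the first probe by 1.07 (adjusted p = 0.0374) and differed by -0.02 on the second (adjusted p = 0.96). With the first probe alone no oxidase gene rose from d60 to birth in Wagyu-sired muscle, and COX7B no longer rose from d195 to birth in the mean of both breeds (0.42, adjusted p = 0.0698). Which of the probes measures the COX7B transcript was not tested.

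**Figure D4:**
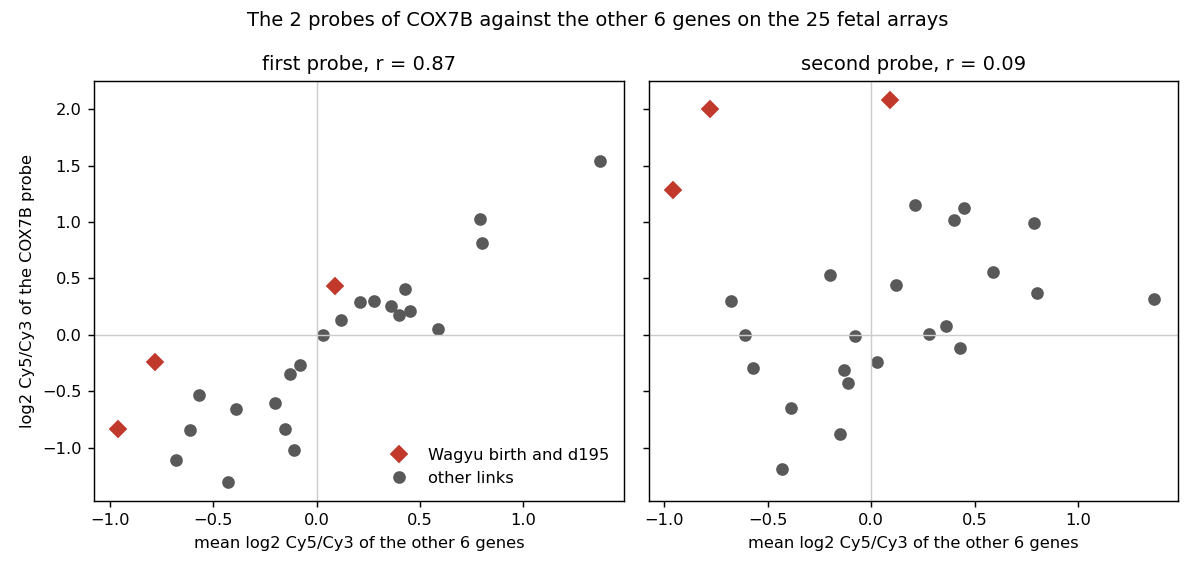
Log2 Cy5 over Cy3 of each COX7B probe (vertical axes; first probe left, second probe right) against the mean of the other 6 genes (horizontal axes) on the 25 fetal arrays, each point 1 array. Diamonds are the 3 arrays of Wagyu-sired birth and d195; the first probe follows the other genes (r = 0.87), and the second (r = 0.09) stands at 1.28 to 2.08 on those arrays.

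The other genes with several probes were more alike, with 1 exception. The first of the 5 COX4I1 probes correlated at 0.27 with the mean of the other genes, against 0.79 to 0.85 for the remaining 4, and had a d60 to birth ratio of 0.10 in the mean of both breeds, against 0.49 to 1.06. The 3 probes of COX6C (r = 0.74 to 0.86), the 3 of COX7C (0.78 to 0.94) and the 2 of COX17 (0.77 and 0.83) followed the rest. For COX6C the probes gave -0.57 to -0.74 from d195 to birth in Wagyu-sired muscle, and for COX17 -0.82 and -1.18.

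Across the 25 fetal arrays the 21 pairs of oxidase genes correlated at r = 0.31 to 0.90 with a median of 0.70. COX6C and COX7C were the most alike (0.90), followed by COX5B with COX6C (0.85) and COX5B with COX7C (0.84), and COX7B with COX17 the least (0.31). These points share arrays, dyes and RNA pools of the loop, so the values are a description. Of 968 other named genes the 5 most like the mean of the 7 genes were all genes of the respiratory chain or its ATP synthase: ATP5E and NDUFB3 (r = 0.94), UQCR11 (0.93), ATP5PF and NDUFA7 (0.92).

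Among the other genes of the enzyme few were on the array with a usable name. Of 12 further nuclear genes of cytochrome c oxidase 2 were measured, COX5A and COX7A2. Both rose from d195 to birth in the mean of both breeds, by 0.83 and 0.75 (limma adjusted p = 0.0211 and 0.0261), where 26.7% of all features rose. In Piedmontese-sired muscle this step came to 0.91 and 0.54 (adjusted p = 0.0421 and 0.253), where 20.7% of all features rose. In Wagyu-sired muscle it came to 0.75 and 0.95 (adjusted p = 0.145 and 0.037), where 21.7% rose. From d60 to birth COX5A and COX7A2 stood at 0.70 and -0.90 in the mean of both breeds (adjusted p = 0.227 and 0.116). Their whole-span changes, Piedmontese-sired minus Wagyu-sired, differed by -0.10 and -0.76 (adjusted p = 0.904 and 0.288). At birth their Piedmontese over Wagyu ratios were 0.06 and -0.32. Of 26 assembly genes 1 was measured, HIGD2A, at 0.95 from d60 to birth (adjusted p = 0.1) and 0.02 for Piedmontese over Wagyu at birth. None of the 6 mitochondrially encoded entries listed was measured.

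The neighbouring complexes of the respiratory chain were read beside the oxidase genes. Of 9 measured complex I genes, which carry electrons from NADH, 5 rose and 1 fell from d60 to birth in the mean of both breeds, against 22.6% and 25.6% of all features (NDUFB9 1.01, NDUFB11 0.71, NDUFV3 -1.02), and from d195 to birth in Wagyu-sired muscle 5 fell and none rose (median -0.50), against 22.9% and 21.7% of all features. Of 10 ATP synthase genes 6 rose from d60 to birth (ATP5F1C 0.98, ATP5IF1 0.93, ATP5F1D 0.73), and in Wagyu-sired muscle 5 rose and 4 fell from d195 to birth. The whole-span change was larger in Piedmontese-sired muscle for 4 of the 9 complex I genes and 4 of the 10 ATP synthase genes, among them ATP5IF1 by 1.3, ATP5PF by 1.11, ATP5E by 1.06, NDUFB3 by 1.03 and NDUFA7 by 0.61 (adjusted p = 0.00484 to 0.0488), and smaller for 1 ATP synthase gene, against 5.26% and 7.94% of all features. ATP5IF1, which inhibits the ATP synthase when it runs backwards, was the 1 gene of these lists that was higher in Piedmontese-sired muscle at birth (0.90, SE 0.18, adjusted p = 0.0355).

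In complex II, complex III with cytochrome c, and the citric acid cycle no measured gene had a larger whole-span change in Piedmontese-sired muscle. Both measured complex II genes rose from d60 to birth (SDHA 1.24, SDHD 0.71, where 22.6% of all features rose). Both also rose from d195 to birth in each breed, where 20.7% of all features rose in Piedmontese-sired and 21.7% in Wagyu-sired muscle. Their median breed difference was -0.43 over the whole span, with none past the threshold. All 4 measured genes of complex III and cytochrome c rose over the whole span (median 0.95; CYC1 4.28, UQCR11 0.96, UQCRC1 0.94), and none differed between the breeds. Of 6 measured citric acid cycle genes 5 rose (DLAT 1.67, MDH2 1.62, SUCLG1 1.23), and the change was smaller in Piedmontese-sired muscle for 2, against 7.94% of all features.

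The later experiment compared the same 7 genes between T1, T2 and T3. From T1 to T2, in the mean of both breeds, COX7C fell by 0.64 (SE 0.14, 0.64-fold, limma adjusted p = 0.0141), the 1 gene of 7 past the threshold where 4.06% of 17253 features fell. Its T2 over T1 ratios were -0.31 and -0.77 on the 2 Piedmontese-sired arrays and -0.87 and -0.63 on the 2 Wagyu-sired arrays, all below 0. COX6A2 at -0.56 and COX6C at -0.28 missed the threshold (adjusted p = 0.138 and 0.133), and the other 4 lay between -0.03 and 0.19. COX6A2 had -0.67 and -0.45 on the Piedmontese-sired arrays and -1.06 and -0.07 on the Wagyu-sired arrays. In this step and the next, the later time was in Cy3 on every Piedmontese-sired array and in Cy5 on every Wagyu-sired array. Single arrays of the 2 breeds therefore also differ in dye. The call of COX7C was lost without Wagyu-sired array 1 or without Piedmontese-sired array 2.

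From T2 to T3, COX7C rose by 0.73 (SE 0.14, 1.66-fold, limma adjusted p = 0.00469) and COX6C by 0.58 (SE 0.11, adjusted p = 0.00384), where 6.73% of features rose. COX7C had T3 over T2 ratios of 0.84 and 0.57 on the Piedmontese-sired arrays and 0.60 and 0.91 on the Wagyu-sired arrays, and COX6C had 0.51 and 0.65 on the Piedmontese-sired arrays and 0.69 and 0.49 on the Wagyu-sired arrays. All 8 values were above 0 and the breeds overlapped. COX6A2 at 0.44 and COX5B at 0.36 missed the threshold (adjusted p = 0.216 and 0.106), and COX4I1, COX7B and COX17 lay at -0.05 to -0.02. COX6A2 had 0.18 and -0.16 on the Piedmontese-sired arrays and 1.12 and 0.62 on the Wagyu-sired arrays, which also differ in dye. With the dye fitted, COX6A2 stood at 0.34 (SE 0.26) in Piedmontese-sired and at 0.54 (SE 0.26) in Wagyu-sired muscle. The difference between the breeds in this step was not tested. Both calls held when any single array was left out, and both were lost when all arrays numbered 1 or all numbered 2 were left out, which leaves 1 array a breed for each step. On the reading of the labels in which the group named first in an array's title is on top of the ratio, COX7C came to 0.11 from T1 to T2 and to -0.02 from T2 to T3 and COX6C to 0.00 from T2 to T3, with no call, so these results rest on Cy5 over Cy3.

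**Figure D5:**
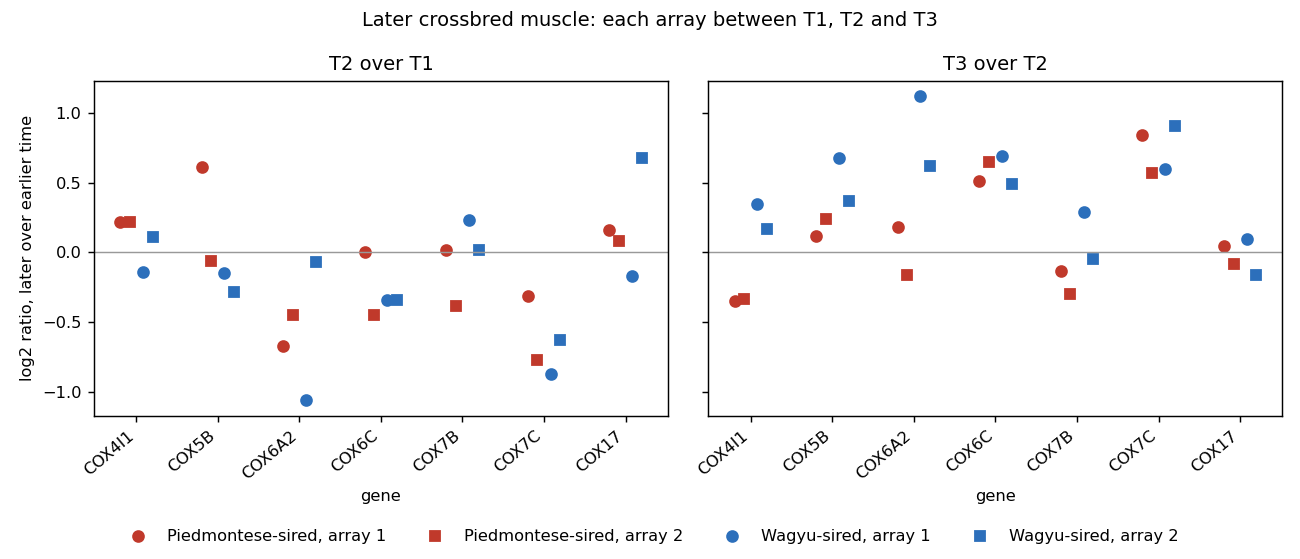
Log2 ratio of the later over the earlier time (vertical axis) for each gene (horizontal axis), T2 over T1 left and T3 over T2 right, on the 2 Piedmontese-sired arrays (red) and the 2 Wagyu-sired arrays (blue) of each link. COX7C is below 0 on all 4 arrays from T1 to T2 (-0.87 to -0.31) and above 0 on all 4 from T2 to T3 (0.57 to 0.91). The later time was in Cy3 on the red arrays and in Cy5 on the blue arrays.

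T3 lay close to T1, with fitted ratios of -0.12 (COX6A2) to 0.39 (COX5B) and none past the threshold, where 0.759% of features passed, and none of the 7 genes and 1356 features had an unadjusted p under 0.05 in limma. Of 19 muscle fibre markers 6 fell and 1 rose between T2 and T3 and 12 did not pass, with a median of -0.36 against 0.02 over all features, where 3.98% of features fell. Of 12 matrix markers 5 fell and none rose (median -0.30). Of 9 complex I genes 3 and of 10 ATP synthase genes 2 rose, where 6.73% of all features rose, and none fell. With the group named first in the title on top, no gene of these 4 lists passed, and the medians were -0.07 for the fibre markers, 0.11 for the matrix markers, -0.05 for complex I and -0.09 for the ATP synthase.

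Between the breeds no oxidase gene passed at T1, T2 or T3. At T1, where 0.753% of features passed, COX4I1 had the largest ratio of Piedmontese over Wagyu, -0.40 (SE 0.12, limma adjusted p = 0.121), with -0.57, -1.09, 0.27 and -0.15 on arrays 1 to 4. Without array 3 or without array 4 of that link COX4I1 was lower in Piedmontese-sired muscle. At T2, where 3.28% of features passed, the 7 genes lay between -0.03 and 0.25, and at T3, where 0.539% passed, between -0.20 and 0.04. Unadjusted p-values under 0.05 were found for 1 gene and 2695 features at T1, for 1 gene and 2674 features at T2 and for none of the genes and 2262 features at T3. The 95% intervals at T3 ran from -0.58 to 0.31 over the 7 genes.

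The 7 genes were less alike in the later arrays, with pairwise r of -0.29 to 0.83 and a median of 0.19 over 20 arrays. COX6C and COX7C were again the most alike (0.83), and COX4I1 with COX7B the least (-0.29). The second COX7B probe correlated at -0.56 with the mean of the other genes and the first at 0.45. The second COX17 probe had usable values on 11 of the 20 arrays and reached the table's highest permitted value on 5. Of 966 other named genes the 5 most like the mean of the 7 were ATP5IF1 (r = 0.90), UQCR11 (0.89), ATP5PF (0.87), NDUFB3 (0.86) and NDUFB4 (0.85), of which UQCR11, ATP5PF and NDUFB3 were also among the 5 of the fetal arrays.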

How the data were processed

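Longissimus muscle RNA was hybridised to 2-colour cDNA arrays (for the fetal arrays, read with GenePix software). The deposited values are log2 ratios of Cy5 over Cy3 per array element as the authors submitted them. The methods describe intensities edited by channel, corrected for background and log2 transformed, then normalized in a mixed model for the fetal arrays; how far the deposited ratios went through these steps is not given in the sources used here. That Cy5 is on top is likely but unstated, and rests on the dye of each channel in the labels. Arrays were not centred as deposited (medians -0.48 to 0.47 fetal, -0.32 to 0.14 later). Values at the upper limit of 16.61 (24 to 216 and 30 to 80 elements an array) were set missing, array medians were subtracted and elements of a gene averaged. Element names come from a platform annotation that can be old: 4490 elements have 1 gene symbol, 188 several and 16490 none. The table has 70 columns, of which 46 were used and 24 not; another table with 77 columns was not used here, nor were intensities, so that depth of signal is unknown.

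Features with values on at least 0.8 of the arrays were fitted with limma 3.58.1 in R 4.3.3 (Cy5 group +1, Cy3 group -1, dye intercept), with the fetal arrays (16659 features, 17 residual degrees of freedom) and the later arrays (17253 features, 14) in separate fits, arrays treated as independent and p-values adjusted by Benjamini-Hochberg over all features. Each fetal link and each time link of T1 to T3 had 1 dye orientation on all its arrays. Breed links at T1 to T3 had 2 arrays each way. The script was tested on simulated data. Arrays were compared in pairs that held a shared group in opposite dyes, so a sample common to both would push r below 0. Over 24 same-numbered pairs r was -0.66 to 0.52 (median -0.18), against -0.71 to 0.59 (median 0.08) over 54 pairs of other numbers. Whether same-numbered arrays carried the same animals is therefore not settled. The main fits did not use the numbers as a pairing, and a fit with them as a block is given as an alternative. Named genes were the 7 genes, from each other list the 3 smallest p in birth over d60, and from the lists the genes past or nearest the threshold for breed at birth and T3 over T1, the 5 most correlated genes in each experiment and measured cell type markers; COX5A, COX7A2 and HIGD2A are all the measured genes of their lists. The genes and lists were chosen with earlier results of these data known. Alternatives changed centring, scale, missing-value filter, limit, averaging, dye term, array weights, arrays included, direction and, after seeing the data, the COX7B probe.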

Additional observations from a re-analysis of the deposited data

Results flagged for a closer look

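For 3 genes the change from d60 to birth differed between the breeds by the test of the difference itself: Piedmontese-sired minus Wagyu-sired came to 1.17 for COX6C, 0.87 for COX5B and 0.86 for COX17 on the log2 scale (limma adjusted p = 0.0152, 0.0434 and 0.0344). The d60 groups include the Piedmontese-sired sample that amplification may have biased. This count of 3 was 1 with arrays scaled to a common spread and 1 with the array number as a replicate block. It was 0 without array 2 or 3 of the breed link at d60 or array 3 of that at birth. Without array 2 of that at birth it was 1, and without other arrays it was up to 6. One array stood far from the others of its link: for COX6A2 the Piedmontese over Wagyu ratio at T2 was -0.58 on array 4 against 0.06, 0.11 and 0.10 on arrays 1 to 3, a gap of 0.93 of the range, above the Dixon limit for 4 values. In all 28 sets of 4 arrays were examined, of which chance would flag about 1 in 20.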

How the results depend on the processing

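Over 20 comparisons the count of oxidase genes past the threshold was within 1.5 times the reported count in 717 of 801 alternatives, and of 5607 ratios of single genes 5321 kept direction and side of the threshold, 192 lost the call, 88 gained one and 6 turned. Uncentred arrays gave 3 genes for d135 over d60, 0 for d195 over d135 and 2 for birth over d60 in the mean of both breeds. With every element tested alone, counting a gene where most of its elements passed, the counts were 1 (d195 over d135), 1 (birth over d195) and 3 (birth over d60) in the mean of both breeds, and 2 (birth over d195) and 0 (birth over d60) in Wagyu-sired muscle. Scaling to a common spread gave 1 and 3 for these 2 Wagyu-sired comparisons, 1 for birth over d195 in the mean and 1 for the breed difference over the whole span. Array weights gave 5 and 6 for the breed difference from d195 and from d60 to birth, 6 for the breeds at birth and 2 for birth over d60 in Wagyu-sired muscle. Features on every array gave 5 for the breed difference over the whole span and 2 for Wagyu-sired birth over d60, which was also 2 without the dye term. The first COX7B probe alone gave 1 for birth over d195 in the mean and 0 for Wagyu-sired birth over d60, and turned COX7B to -0.08 from d195 to birth in Wagyu-sired muscle. With values at the upper limit kept, COX17 came to -2.65 for T2 over T1 and -4.76 for T3 over T1, with counts of 2 and 1. The title order gave counts of 0 for T2 over T1 and T3 over T2, with COX7C at 0.11 and -0.02 and COX6C at 0.00. The array number as a replicate block gave 3 for birth over d60 in the mean and 1 for the breed difference over the whole span, and moved none of the other 18 counts by over 1.5 times. The cause of these shifts was not tested.

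Leaving out arrays singly or by number, the counts ran from 2 to 6 (d135 over d60), 0 to 3 (d195 over d135), 1 to 3 (birth over d195) and 2 to 5 (birth over d60) in the mean of both breeds, 1 to 4 and 4 to 7 in Piedmontese-sired muscle from d195 and from d60 to birth, 2 to 5 and 1 to 2 in Wagyu-sired muscle, 0 to 3 and 0 to 6 for the breed difference in these spans, 0 to 6 for the breeds at birth, 0 to 1 for T2 over T1 and for the breeds at T1, and 0 to 2 for T3 over T2. The other 6 counts stayed at 0. Signal over background was not used, so the precision of dim elements is unknown.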
